A study of Mus musculus with 4 samples.

Results

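The 2-oxoglutarate oxygenases described here are the enzymes of this family that remove methyl groups from histones, DNA and RNA or hydroxylate collagen and other proteins. They were chosen by gene name from the annotation of the arrays, with every probe of each gene. The rule uses no measured value, but the family was proposed with earlier results of these data known. The set held 38 genes of 29676 gene names on the array, with 67 probes, and comprised 9 histone H3K9 demethylases, 7 other histone demethylases, 2 JmjC protein hydroxylases, 3 DNA dioxygenases of the TET family, 9 members of the AlkB family and 8 collagen and membrane hydroxylases. Transcripts were measured on one-colour Agilent mouse arrays in astrocyte-enriched cultures (AECs) that were either untreated (n = 2) or exposed to oxygen–glucose deprivation (OGD) for 15 h (n = 2). AECs were cortical glial cultures from newborn ICR mice at postnatal days 1 to 3 (3 to 4 pups selected per litter), and both groups had been depleted of microglia with the CSF1R inhibitor PLX3397. OGD combined medium without glucose with an oxygen concentration of 0 to 1%, so neither component was tested alone. The study states that oligodendrocytes and possibly NG2 glia remained in the cultures.

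Enzymes of this family use molecular oxygen and 2-oxoglutarate as substrates, with iron as cofactor, and release succinate. They hydroxylate a carbon of their target, and where that carbon is a methyl group on nitrogen it is then lost as formaldehyde, which is how JmjC proteins demethylate lysines of histones and how AlkB proteins demethylate nucleic acids. Their activity can fall when oxygen is scarce, and the transcripts of some of them are described as targets of hypoxia-inducible factor 1 (HIF-1). Transcript levels, not enzyme activities, were measured here.

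Total signal was lower on the OGD arrays. The 75th percentile of the processed signal was 2135 and 2164 in untreated AECs and 887 and 776 after OGD, whereas 9 spiked-in control probes differed by a mean of -0.08 on the log2 scale, with a range of -0.75 to 0.28. Log2 fold changes are given for OGD minus untreated after each array was set to its own 75th percentile, the scaling of the methods. Scaling to the spike-ins instead lowers the log2 fold change of each probe measured on all 4 arrays by 1.29, so that a change between 0 and 1.29 turns negative. Before any scaling, the processed signal of the brightest probe was lower on both OGD arrays than on both untreated arrays for 34 of the 38 members, as for 90.8% of all genes, and higher on both for 3 members, against 4.77% of all genes. The methods state that the same amount of total RNA was labelled for each array, and what lowered the total signal was not tested. Between 64.5 and 73.7% of spots were well above background, and all 4 arrays were on 1 slide.

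Of the 38 members, 16 were called higher and 10 lower after OGD by limma at an adjusted p below 0.05, and 12 were not called. A gene was represented by its brightest probe, and all 38 had at least 1 probe that passed the filter on dim signals. Of the 67 probes 64 were tested, and the 3 too dim to test were 1 each of *Kdm3b*, *Tet3* and *Plod1*. Across the 21064 genes tested, 37.1% were called higher and 27.8% lower. Without either one of the untreated arrays, fewer members and a smaller share of all genes were called. The median log2 fold change of the members was 0.17, beside 0.16 for all genes. These comparisons depended on the processing: with normexp background correction 16 members were called higher beside 60.5% of all genes, with medians of 0.15 and 0.51, and with the mean over the probes of a gene 21 members were called higher beside 36.9% of all genes. With a limit of 2-fold added, 5 members were higher (12.7% of all genes) and 4 were lower (15% of all genes). *Alkbh1*, *Jmjd6*, *P4ha2*, *P4ha1* and *Kdm3b* were the 5 that rose by this scale, and *Tet1*, *Kdm2a*, *Kdm4d* and *Alkbh4* the 4 that fell. No brightest probe of a member passed the 10-fold limit of the methods, which 1.27% of all genes passed. Under spike-in scaling 3 members were called higher, *Alkbh1*, *Jmjd6* and *P4ha2*, against 3.84% of all genes, and 33 were called lower, against 83.3% of all genes.

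**Figure D1:**
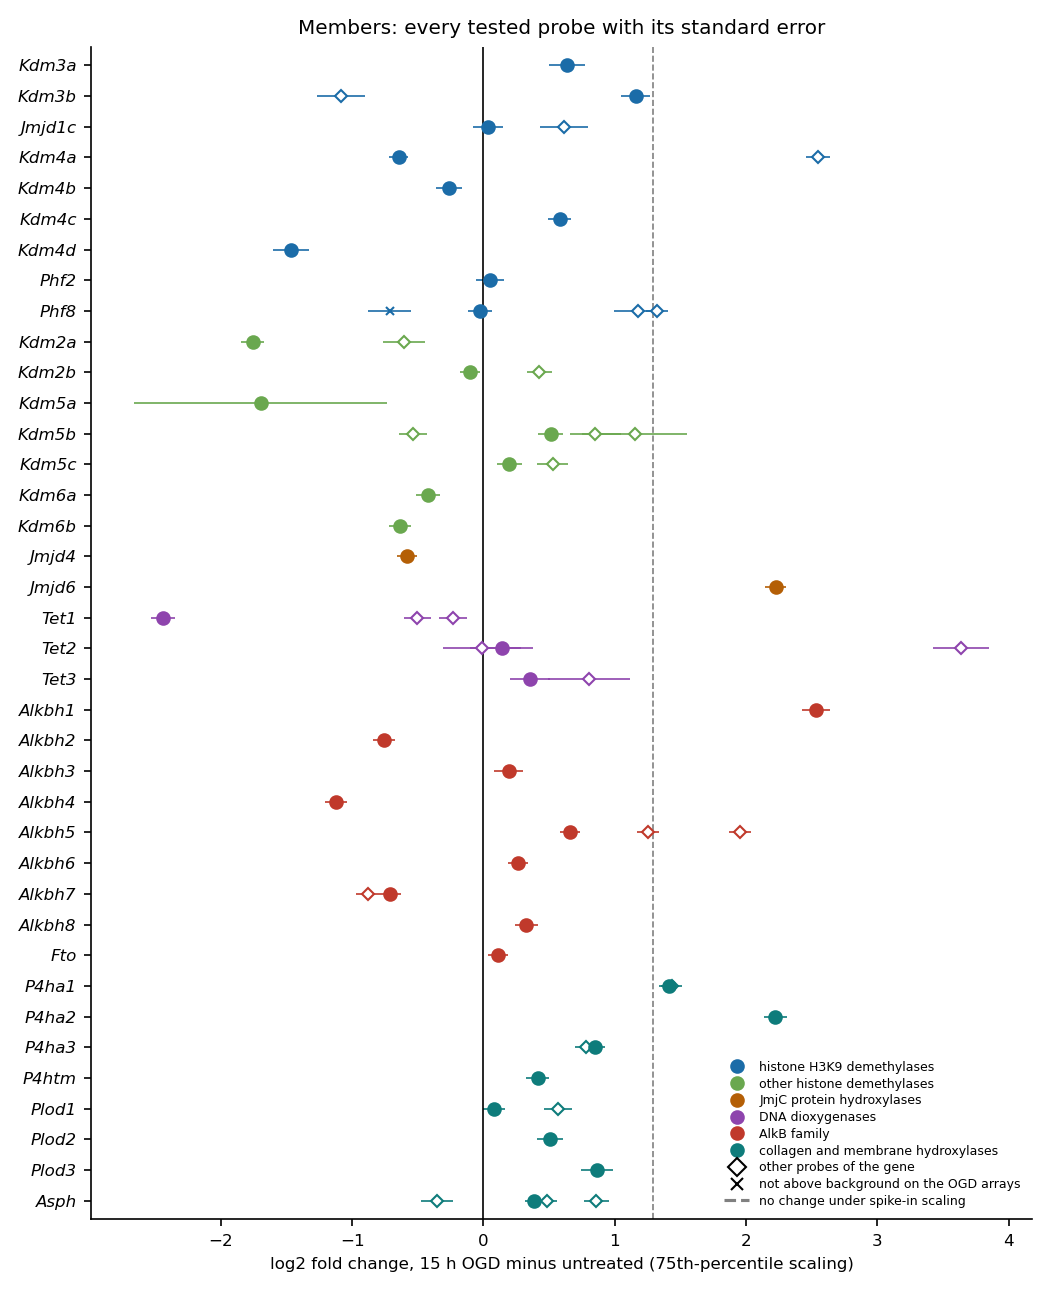
Log2 fold change, OGD minus untreated, of every tested probe of the 38 members (n = 2 arrays per group). Filled circles are the brightest probe of a gene, open diamonds its other probes, a cross a probe not above background on the OGD arrays, bars the standard error of the fit, and the dashed line at 1.29 the position of no change under spike-in scaling. The brightest probes of *Alkbh1*, *Jmjd6*, *P4ha2* and *P4ha1* lie to the right of that line.

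The collagen and membrane hydroxylases moved mostly one way: 7 of 8 were called higher, beside 37.1% of all genes, and none lower. Their median log2 fold change was 0.68. Under spike-in scaling, however, 1 was called higher and 6 lower, beside 3.84% and 83.3% of all genes. By the methods' t-test 4 of 8 were called higher, beside 25.8% of all genes. Without either one of the untreated arrays, fewer of the 8 and a smaller share of all genes were called higher. *P4ha2* encodes a catalytic subunit of collagen prolyl 4-hydroxylase, the enzyme that makes the hydroxyproline on which the collagen triple helix depends. Its probe (chr11:53945032-53945091 of build mm9, plus strand) read 1032 and 1056 in untreated AECs and 1936 and 1831 after OGD. Both OGD signals lay above both untreated ones before any scaling. The scaled log2 fold change was 2.22 (SE 0.08, adjusted p = 0.000765), which was 0.94 under spike-in scaling. *P4ha1*, the other widely expressed catalytic subunit, gave 5421 and 5248 in untreated AECs and 5834 and 5142 after OGD with its brightest probe (chr10:58835625-58835684). These unscaled signals overlapped between the groups. After scaling, the log2 fold change was 1.41 (SE 0.08, adjusted p = 0.00106), and the second *P4ha1* probe gave 1.43, whereas under spike-in scaling the brightest probe gave 0.12.

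The third catalytic subunit gene, *P4ha3*, changed by 0.85 and 0.78 on the log2 scale with its 2 probes. The collagen lysyl hydroxylases, which prepare collagen for crosslinking, gave 0.86 for *Plod3*, 0.51 for *Plod2*, whose product acts on the telopeptides, and 0.08 for *Plod1*, which was not called (adjusted p = 0.452). With the mean over the probes of a gene, *Plod1* was called higher, as were all 8 of the class. *P4htm*, a prolyl 4-hydroxylase of the endoplasmic reticulum membrane, changed by 0.41, and *Asph*, an aspartyl hydroxylase of EGF-like domains, by 0.39. All 6 of these turned negative under spike-in scaling. Among the proteins that work beside these enzymes, 7 of 15 folding and crosslinking partners were called higher and 2 lower, beside 37.1% and 27.8% of all genes, with a median of 0.13. *Lox*, the first of the lysyl oxidases, changed by 1.93 (SE 0.20, adjusted p = 0.00329), *Loxl2* by 1.25 and *P4hb*, the beta subunit that pairs with the prolyl 4-hydroxylase catalytic subunits, by 1.22, and 1 of the 15 stayed called higher under spike-in scaling. *Loxl1* fell by 0.78 (adjusted p = 0.00889). Of 6 fibroblast markers, all well above background on the 4 arrays, none was called higher and 2 were called lower, *Pdgfrb* with -2.42 and the collagen gene *Col3a1* with -1.0002. The summed unscaled signal of those markers ran from 35617 to 44167 on the untreated arrays and from 9873 to 15829 on the OGD arrays. The part of fibroblasts in the values of the collagen hydroxylases was not tested, and in bulk samples fewer cells of a type and less RNA per cell cannot be told apart.

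Both JmjC protein hydroxylases were called, in opposite directions. *Jmjd6*, a lysyl hydroxylase of splicing factors, read 649.5 and 682 in untreated AECs and 1266 and 1140.2 after OGD (chr11:116702517-116702576, minus strand). Both OGD signals were higher before scaling, the scaled log2 fold change was 2.23 (SE 0.08, adjusted p = 0.000738), and the value under spike-in scaling was 0.94. *Jmjd4*, which hydroxylates the translation release factor eRF1, changed by -0.59 (adjusted p = 0.00524), a call that was lost without either one of the untreated arrays.

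Of the 9 members of the AlkB family, 4 were called higher, 3 lower and 2 not, beside 37.1% of all genes higher and 27.8% lower. Under spike-in scaling 1 was called higher and 8 lower, beside 3.84% and 83.3% of all genes. *Alkbh6* and *Alkbh8* lost their calls without either one of the untreated arrays, without OGD array 1 and with the replicate block, each of which left 2 called higher. *Alkbh1*, a demethylase of DNA and tRNA, had the largest change of any member by its brightest probe. Its probe (chr12:88769637-88769696, minus strand) read 433 and 443 in untreated AECs and 973 and 986 after OGD, with no overlap before scaling. The log2 fold change was 2.53 (SE 0.11, adjusted p = 0.000799), 5.80-fold, or 1.25 under spike-in scaling. *Alkbh4*, an AlkB homolog described as acting on actin, went the other way, from 1205 and 1154 to 217 and 202 (chr5:136617421-136617480). Its log2 fold change was -1.12 (SE 0.09, adjusted p = 0.00174).

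The 2 AlkB proteins that erase N6-methyladenosine from mRNA differed in their calls, and the difference between them was not tested. *Alkbh5* was called higher with each of its 3 probes, at 1.96, 1.25 and 0.66 on the log2 scale from the most upstream to the most downstream. The most upstream probe (chr11:60369340-60369399) read 3881 and 3914 in untreated AECs and 6451 and 5278 after OGD, and under spike-in scaling it gave 0.67, whereas the brightest and most downstream probe gave -0.63. *Fto* gave 0.11 (SE 0.08, adjusted p = 0.279) and was not called. *Alkbh2*, which repairs alkylated duplex DNA, changed by -0.76 (adjusted p = 0.00358), while *Alkbh3*, which acts on single-stranded DNA and RNA, gave 0.19 and was not called (adjusted p = 0.193). *Alkbh7*, a mitochondrial member, changed by -0.71 and -0.88 with its 2 probes, and *Alkbh8*, of tRNA wobble uridine modification, and *Alkbh6* by 0.33 and 0.26, both negative under spike-in scaling.

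Among the 9 histone H3K9 demethylases, 3 were called higher, 2 lower and 4 not, with a median of 0.04, and under spike-in scaling none was called higher and 8 were called lower. The counts after 75th-percentile scaling stand beside 37.1% of all genes called higher and 27.8% lower. Those under spike-in scaling stand beside 3.84% and 83.3%. Without either one of the untreated arrays, *Kdm3a* and *Kdm4c* lost their calls, and a smaller share of all genes was called. *Kdm3a*, a demethylase of mono- and dimethylated H3K9 that is described as a HIF-1 target, read 5309.5 and 5425 in untreated AECs and 3088 and 3355 after OGD. Both OGD signals were lower, but by less than the fall of the 75th percentile, so the scaled log2 fold change was 0.64 (SE 0.13, adjusted p = 0.0188) and the spike-in value -0.65. *Kdm4b*, another gene described as a HIF-1 target, gave -0.26 and was not called (adjusted p = 0.0831), although it was called lower in 6 of the 17 alternatives, among them normexp, at -0.28, and the omission of OGD array 2, at -0.35. *Kdm4c*, of the same group of demethylases of trimethylated H3K9 and H3K36, changed by 0.58 (adjusted p = 0.00727). *Kdm4d* read 136 and 143 in untreated AECs and 23.2 and 16.3 after OGD (chr9:14267029-14267088). Its log2 fold change was -1.46 (SE 0.14, adjusted p = 0.00253), but the value was -0.09 with normexp background correction and was then not called (adjusted p = 0.392). *Phf2* gave 0.05, *Jmjd1c* 0.04 and the brightest probe of *Phf8* -0.03, and none of these was called.

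*Kdm3b*, the closest relative of *Kdm3a*, and *Kdm4a* had probes that were called in opposite directions. The brightest *Kdm3b* probe read 679.9 and 689 in untreated AECs and 583 and 599 after OGD, a log2 fold change of 1.16 (SE 0.11, adjusted p = 0.00262) that became -0.13 under spike-in scaling and, as the mean over its probes, 0.04, neither of them called. The downstream *Kdm3b* probe, 33763 bases away, read 259 and 261 against 59.3 and 37.8, a log2 fold change of -1.08 (SE 0.18, adjusted p = 0.00986), or -0.33 with normexp, and lost its call without either one of the untreated arrays. For *Kdm4a*, the brightest probe read 6418 and 6525 against 1716 and 1484, a log2 fold change of -0.65 (SE 0.07, adjusted p = 0.00392). The other *Kdm4a* probe, 5088 bases upstream, read 62.4 and 68.3 in untreated AECs and 152 and 143 after OGD, and changed by 2.55 (SE 0.09, adjusted p = 0.000752), or 1.26 under spike-in scaling. The 2 *Kdm4a* probes are annotated to different transcripts of the gene, and so are those of *Kdm3b*.

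Of the 7 other histone demethylases, 1 was called higher, 3 lower and 3 not, beside 37.1% of all genes higher and 27.8% lower, with a median of -0.42, and all 7 were called lower under spike-in scaling, beside 83.3% of all genes. Without either one of the untreated arrays, fewer of the 7 and a smaller share of all genes were called. *Kdm2a*, an H3K36 demethylase that binds CpG islands through a CXXC domain, read 1847 and 1793.5 in untreated AECs and 231 and 187 after OGD (chr19:4316170-4316229, minus strand). Its log2 fold change was -1.76 (SE 0.09, adjusted p = 0.000937), and its upstream probe gave -0.60. The H3K27 demethylases both were lower, at -0.42 for *Kdm6a* and -0.63 for *Kdm6b*, although the *Kdm6a* value came to -0.00091 with normexp. Among the H3K4 demethylases, *Kdm5b* was the one called higher, at 0.51 with its brightest probe (8257 and 8408 against 5175 and 4066, adjusted p = 0.0124), and this turned to -0.78 under spike-in scaling. *Kdm5c* gave 0.20 and *Kdm2b*, a recruiter of Polycomb complexes, -0.10, neither of them called. *Kdm5a* read 1954 and 1736 in untreated AECs and 478 and 115 after OGD. One of its untreated spots was marked as an outlier by the scanner software and left out of the fit, and with the wide gap between the OGD arrays the log2 fold change of -1.70 had an SE of 0.96 and was not called (adjusted p = 0.222). With normexp it was called lower, at -1.44. Leaving out OGD array 1 or 2 gave -2.63 or -0.76, from 1 array in each group and so with no measured spread between its replicates.

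The TET enzymes, which oxidize 5-methylcytosine, were called lower for *Tet1* and not called for *Tet2* and *Tet3* by their brightest probes, and all 3 were called lower under spike-in scaling, beside 83.3% of all genes. The *Tet1* probe (chr10:62274448-62274507, minus strand) read 544 and 528 in untreated AECs and 38.9 and 37.3 after OGD. The log2 fold change was -2.44 (SE 0.09, adjusted p = 0.000753), 5.43-fold lower, or -1.15 with normexp. The 2 other *Tet1* probes, further upstream, gave -0.23, which was not called (adjusted p = 0.127), and -0.50. With normexp these 2 probes turned positive, at 0.44 and 0.59. *Tet2* gave 0.14 and -0.01 with the 2 probes at its downstream end, while its upstream probe (chr3:133176421-133176479, minus strand) read 62.7 and 50.4 in untreated AECs and 246 and 295 after OGD. That probe changed by 3.64 (SE 0.22, adjusted p = 0.00118), 12.4-fold, or 2.35 under spike-in scaling, and is annotated to a transcript other than the one the downstream probes report. *Tet3* gave 0.35 with its brightest probe and was not called (adjusted p = 0.114), but it was called higher with normexp, at 0.98, with the mean over its probes, at 0.58, and without OGD array 2, at 0.53. By the mean over its probes *Tet2* gave 1.25 and was called higher, as it was without OGD array 1, at 0.46.

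**Figure D2:**
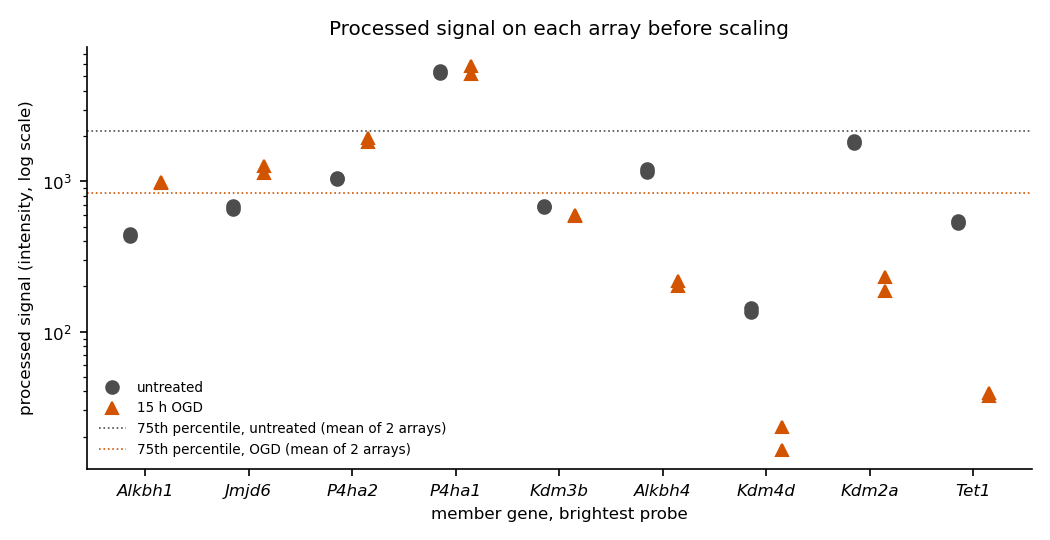
Processed signal (intensity, log axis) on each of the 4 arrays before scaling, for the brightest probes of the 9 members called with a change over 2-fold. Grey circles are untreated arrays, orange triangles OGD arrays and dotted lines the mean 75th percentile of each group. *Alkbh1*, *Jmjd6* and *P4ha2* have both OGD arrays above both untreated arrays, *P4ha1* overlaps, and the other 5 have both OGD arrays below.

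Promoter sequences are printed for *P4ha1* and *P4ha2*, since both are known hypoxia-responsive genes, and for *Alkbh1*, *Jmjd6* and *Tet1*, which had the largest scaled changes of a brightest probe among the other members. Each is the 250 bases before the annotated start, 5′ to 3′ on the gene's strand, from the RefSeq promoter table of build GRCm38.p6. Capitals mark the core of the hypoxia response element, searched as ACGTG or GCGTG on both strands. This search also finds the E-box CACGTG, which 6.02% of all promoters held.
P4ha1, chr10:59323046-59323295, plus strand: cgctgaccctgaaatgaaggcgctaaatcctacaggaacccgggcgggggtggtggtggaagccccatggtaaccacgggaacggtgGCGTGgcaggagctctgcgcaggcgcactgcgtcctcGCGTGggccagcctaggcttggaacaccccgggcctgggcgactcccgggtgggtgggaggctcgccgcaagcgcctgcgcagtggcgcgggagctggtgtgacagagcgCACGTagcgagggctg
P4ha2, chr11:54100674-54100923, plus strand: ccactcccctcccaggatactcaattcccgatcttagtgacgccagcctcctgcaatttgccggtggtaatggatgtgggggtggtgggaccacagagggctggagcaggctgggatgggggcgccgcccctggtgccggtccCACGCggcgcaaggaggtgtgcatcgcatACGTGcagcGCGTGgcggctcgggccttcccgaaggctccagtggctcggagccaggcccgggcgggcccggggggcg
Jmjd6, chr11:116843450-116843699, minus strand: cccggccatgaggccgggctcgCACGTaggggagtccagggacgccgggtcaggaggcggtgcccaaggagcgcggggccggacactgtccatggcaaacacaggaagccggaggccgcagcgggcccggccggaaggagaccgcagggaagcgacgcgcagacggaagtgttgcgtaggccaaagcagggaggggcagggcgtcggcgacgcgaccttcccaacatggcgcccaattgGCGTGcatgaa
Alkbh1, chr12:87443840-87444089, minus strand: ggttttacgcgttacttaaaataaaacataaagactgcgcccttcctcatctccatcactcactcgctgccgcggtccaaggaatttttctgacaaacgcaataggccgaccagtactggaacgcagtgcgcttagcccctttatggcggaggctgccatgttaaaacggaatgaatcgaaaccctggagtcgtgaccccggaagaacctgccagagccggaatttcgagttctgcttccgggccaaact
Tet1, chr10:62887325-62887574, minus strand: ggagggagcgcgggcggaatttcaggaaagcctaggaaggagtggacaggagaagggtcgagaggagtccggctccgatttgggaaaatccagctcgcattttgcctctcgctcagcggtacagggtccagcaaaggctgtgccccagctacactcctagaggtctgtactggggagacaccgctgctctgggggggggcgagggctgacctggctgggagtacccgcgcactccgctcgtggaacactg

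The core was found 3 times each in the *P4ha1* and *P4ha2* windows, in *P4ha1* at 163, 126 and 16 bases before the start and in *P4ha2* at 107, 78 and 69 bases, and 2 times in *Jmjd6*, at 228 and 11 bases. None was found in the windows of *Alkbh1* and *Tet1*. The table held a promoter for 31 of the 38 members, 18 of which had a match at 1 or more of their annotated starts. Counted by start, 21 of 40 windows of members held a match (52.5%), compared with 38.6% of the 32851 promoters in the table. *Alkbh1*, with the largest rise of a brightest probe, had none, whereas *Alkbh4*, which fell, had 2 matches at 1 of its 3 starts. A match describes the sequence and does not show that a factor bound there.

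Several members had probes that disagreed. Only the outermost probes of a gene were compared by test, and the probes between them did not always lie in order, as in *Asph*, with 0.86, -0.35, 0.39 and 0.49 from upstream to downstream, and in *Tet1*. Both examples depended on background correction. With normexp the *Asph* probe at -0.35 gave 0.81, and the *Tet1* probes gave 0.59, 0.44 and -1.15 from upstream to downstream. Of 17 members with 2 or more tested probes, the outermost pair was compared within each array as the log2 ratio of the upstream to the downstream probe, a quantity from which the scaling of an array cancels. The ratio was higher after OGD in 15 of 17 members, compared with 75.7% of the 4534 genes with such a pair, and called higher in 12, compared with 46.6%. None of the 17 was called in the other direction, as were 6.75% of genes. The median difference was 0.58 among members and 0.40 among all these genes. This comparison was chosen after the probe values had been seen, and the same shift across the array was already known, so it places the members within an array-wide pattern and does not set them apart. Without either one of the untreated arrays, 7 members were called in place of 12.

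The difference was called and exceeded 2-fold in 8 members, compared with 26.7% of genes. It was 3.497 (SE 0.15) for *Tet2*, where the log2 ratio was -5.19 and -5.49 in untreated AECs and -1.75 and -1.93 after OGD. It was 3.19 (SE 0.12) for *Kdm4a*, 2.24 (SE 0.24) for *Kdm3b* and 1.94 (SE 0.11) for *Tet1*. The ratios of the groups did not overlap in these 4, in the 4 named next, or in several members with smaller differences. The share of all genes without overlap was not counted. The remaining 4 were *Kdm5b* with 1.69 (SE 0.43), *Alkbh5* with 1.29 (SE 0.11), *Phf8* with 1.20 (SE 0.14) and *Kdm2a* with 1.15 (SE 0.19). Smaller called differences were found in *Jmjd1c* (0.58), *Kdm2b* (0.53), *Plod1* (0.49) and *Asph* (0.38). The difference was not called for *Tet3* (0.45), *Kdm5c* (0.33), *P4ha1* (0.02), *P4ha3* (-0.07) and *Alkbh7* (-0.17), and 4 of these 5 have outermost probes no more than 4311 bases apart, as do *Kdm2b*, *Kdm2a* and *Alkbh5* among the called ones, at 1026, 1967 and 2246 bases.

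Within *Kdm5b* and *Phf8* single probes were called in opposite directions. *Kdm5b* has 4 probes, which gave 1.15, 0.85, 0.51 and -0.54 from upstream to downstream. The most upstream of them read 96.5 and 81.2 in untreated AECs and 56.2 and 103 after OGD, with overlapping signals, and was not called (adjusted p = 0.0689). The next read 162 and 145 against 97.2 and 118 (adjusted p = 0.0236), and the most downstream 570.3 and 623 against 179.8 and 139.98 (adjusted p = 0.0146). *Phf8* also has 4 probes. Its 2 upstream probes were dim, with 17.0 and 21.5 against 15.9 and 17.4 for the first and 24.6 and 26.1 against 26.8 and 22.3 for the second, and gave 1.17 and 1.32. The third was not well above background on either OGD array, so that it gives no fold, although the fit called it lower (adjusted p = 0.0243). Its log2 fold change was -0.71 in this fit and 1.07 with normexp, so that with that background correction this probe lay on the same side as the upstream probes. The fourth and brightest read 3886 and 4225 against 1581 and 1491 and was not called (adjusted p = 0.811).

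The outermost probes of 7 of the 17 members are annotated to different transcripts, and the difference was called in all 7, with a median of 1.69, compared with 49.6% of all genes with such a pair. In the other 10 both probes are annotated to the same transcript, and it was called in 5 of them, *Tet1*, *Alkbh5*, *Kdm2a*, *Kdm2b* and *Plod1*, with a median of 0.47 over the 10, compared with 44.7% of all genes. The pairs of different transcripts also lay farther apart, at 5088 to 183828 bases, than those of the same transcript, at 326 to 33023 bases. In every pair but that of *Kdm3b*, the upstream probe was the dimmer one in untreated AECs. The mean log2 ratio there was -7.73 for *Phf8*, -6.63 for *Kdm4a* and 1.40 for *Kdm3b*. The part of annotation, distance and signal level in the difference was not tested.

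**Figure D3:**
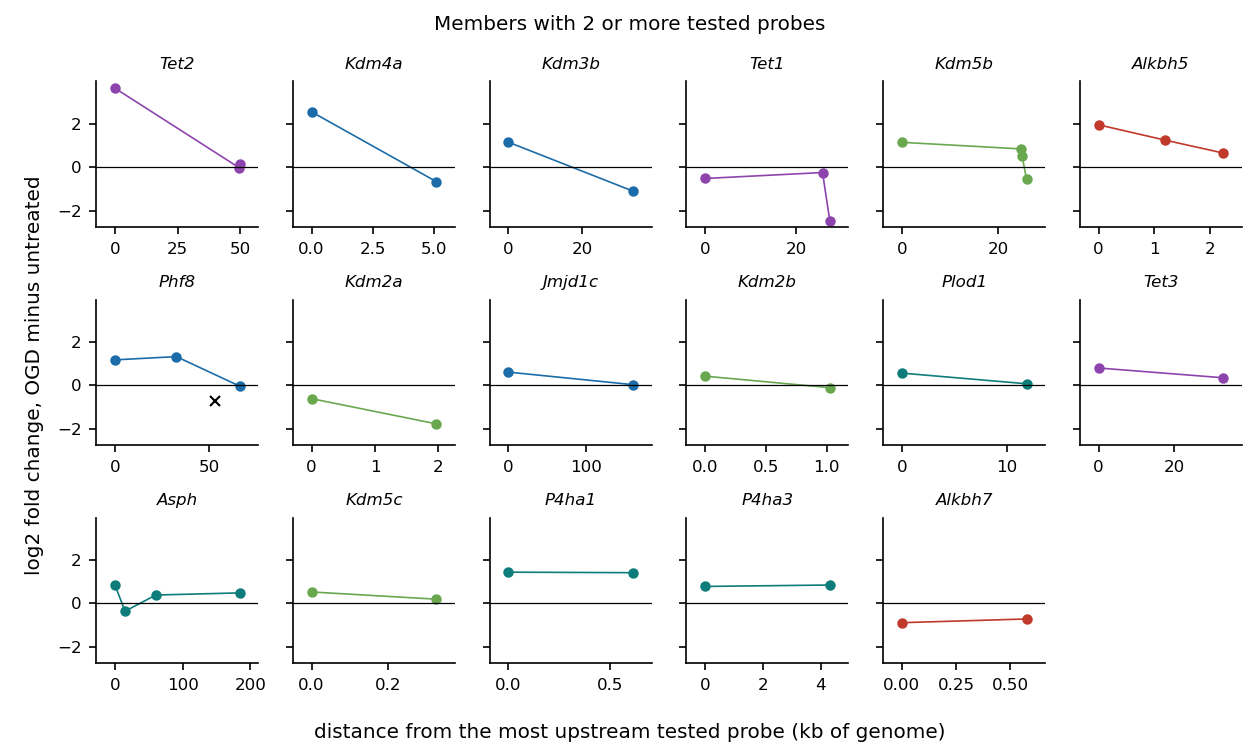
Log2 fold change, OGD minus untreated, of each tested probe of the 17 members with several probes, against its distance in kb of genome (build mm9) from the most upstream one; each panel has its own distance axis and all share the vertical axis. Lines join probes well above background on all arrays and a cross marks the *Phf8* probe that was not. The lines descend to the right in *Kdm4a*, *Kdm3b* and *Alkbh5*, the most upstream probe of *Tet2* lies above its other 2, and the lines are level in *P4ha1* and *P4ha3*.

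**Figure D4:**
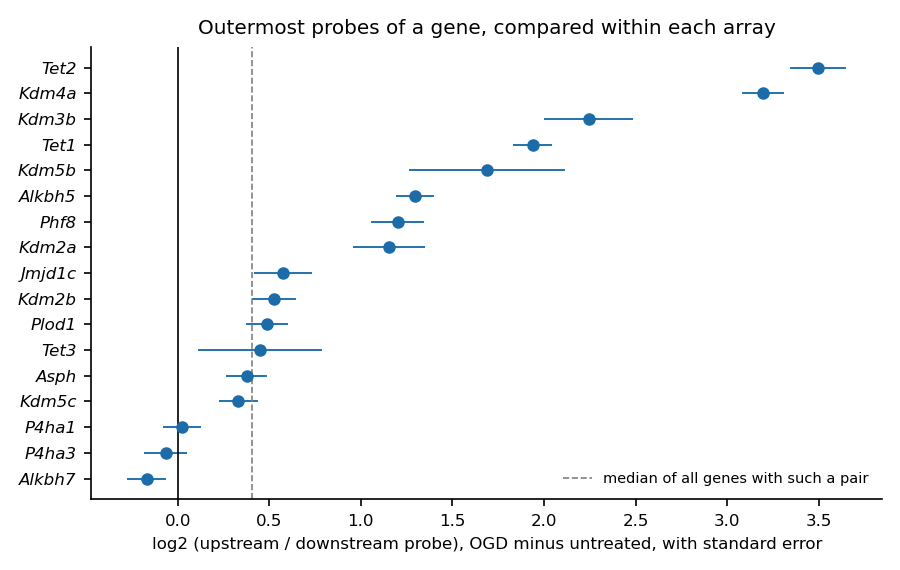
Difference between the groups, OGD minus untreated, in the log2 ratio of the most upstream to the most downstream probe of each of 17 members, with the standard error of the fit (n = 2 arrays per group). The dashed line is the median of 4534 genes, 0.40. 15 of the 17 points lie above 0, from 0.02 for *P4ha1* to 3.497 for *Tet2*.

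The oxygenases outside the set were also divided. The HIF hydroxylases, which use the same chemistry to mark HIF-1α for degradation or to silence it, were all called: *Egln3* and *Egln1*, both known HIF-1 targets, changed by 2.10 (SE 0.09, adjusted p = 0.000826) and 1.73 (SE 0.08, adjusted p = 0.000891), and *Egln2* and the asparaginyl hydroxylase *Hif1an* by -1.05 and -2.21, the latter -0.97 with normexp. These directions held under spike-in scaling, at 0.81, 0.44, -2.34 and -3.498. Of 21 further 2-oxoglutarate oxygenases tested, 8 were called higher and 5 lower, beside 37.1% and 27.8% of all genes, with a median of 0.35. *Kdm7a*, a demethylase of H3K9 and H3K27, changed by 1.85, *P3h2*, a collagen prolyl 3-hydroxylase, by 1.23 and *Asphd1* by 1.0995, while *Kdm8* changed by -1.96, *Riox2* by -1.47 and *Jmjd7* by -1.15, which with normexp came to -1.11, -1.43 and -0.40. *Kdm7a* alone of the 21 was called higher under spike-in scaling. The flavin-dependent demethylases, which do not need 2-oxoglutarate, gave 0.60 for *Kdm1a* (adjusted p = 0.0102) and -0.18 for *Kdm1b*, which was not called.

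Of 27 histone methyltransferases, which write the marks that the demethylases remove, 10 were called lower and 8 higher, beside 27.8% and 37.1% of all genes, with a median of -0.12. The largest falls were *Ezh1*, an H3K27 methyltransferase, by -3.21 (SE 0.08, adjusted p = 0.000729), *Nsd1*, an H3K36 methyltransferase, by -2.46, and *Setd1b*, an H3K4 methyltransferase, by -2.25. *Prdm2* changed by 1.97 and was the one called higher under spike-in scaling, where 26 of 27 were called lower, beside 83.3% of all genes. Of 15 DNA and RNA methyltransferases and readers, 6 were called lower and 3 higher, with a median of -0.20, led by the de novo DNA methyltransferase *Dnmt3a* at -2.29 (SE 0.08) and by *Mettl3*, the catalytic subunit of the mRNA N6-adenosine methyltransferase, at -0.78. Genes that supply or consume the cosubstrate and product were called higher in 11 of 22 and lower in 3, with a median of 0.33, including *Suclg2* with 1.11, and none was called higher under spike-in scaling.

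For comparison, all 14 HIF-1 target genes were called higher, with a median of 2.58, and 9 stayed so under spike-in scaling, where their median was 1.29 and 2 were called lower. *Slc16a3*, a lactate exporter, changed by 6.30 and *Ankrd37* by 5.92.

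**Figure D5:**
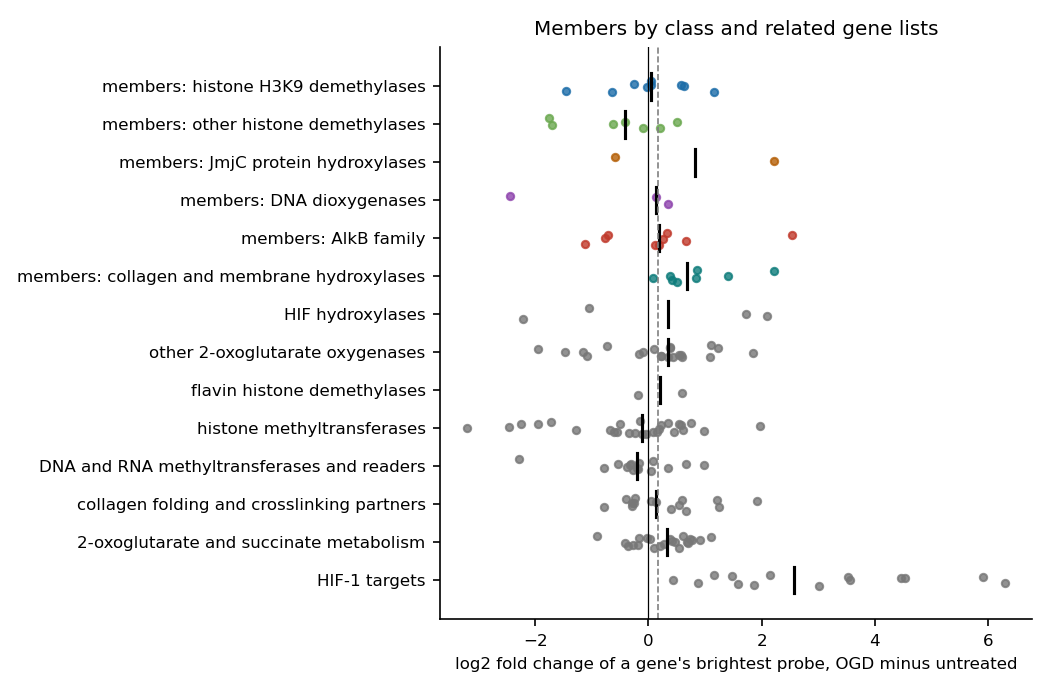
Log2 fold change, OGD minus untreated, of the brightest probe of each tested gene, for the 6 classes of members (coloured) and 8 related lists (grey). Black bars are medians and the dashed line is the median of all genes, 0.16. The median of the HIF-1 targets is 2.58, and that of the collagen and membrane hydroxylases, 0.68, is above those of the histone demethylases.

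The markers of the cultures' cell types were measured on the same arrays. All 10 astrocyte markers were well above background on all 4 arrays, with 6 called higher and 1, *Sox9*, lower at -1.52. Over all genes, 37.1% were called higher and 27.8% lower, and several counts of the marker lists lie near these shares. Their summed unscaled signal ran from 322038 to 358070 on the untreated arrays and from 180063 to 201469 on the OGD arrays. Of 9 microglia markers tested, 3 were called higher and 1 lower, with summed signals of 3274 to 3877 and of 1325 to 1719, and *C1qa* did not pass the filter. Most of these sums came from *Itgam*, which read 3328 and 2726 in untreated AECs and 1376 and 1015 after OGD. *Cx3cr1*, *C1qc* and *Ptprc* were well above background on only 2 arrays. Of 8 oligodendrocyte markers, 3 were called higher and 3 lower, *Olig2* at -2.50 among them, with summed signals of 62163 to 63420.3 and of 19734 to 23260.4. Of 5 NG2 glia markers 3 were called higher and 1 lower, of 6 neuron markers 2 and 2, and of 2 endothelial markers none. Under spike-in scaling, none of these markers was called higher. The part of a shift between these cell types in the values of the members was not tested.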

How the data were processed

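RNA of 2 untreated and 2 OGD-treated AEC cultures was labelled with Cy3 and hybridized to Agilent mouse gene expression arrays of design build mm9. Per the file headers and the submitters' processing notes, Agilent Feature Extraction 11.5.1.1 produced the deposited processed signal intensity, which is background-subtracted and not yet scaled between arrays. The series value table equals these intensities. Here, intensities were log2-transformed and each array's 75th percentile over non-control probes was subtracted. Repeated spots of a probe were averaged without outlier spots, so that 95 of the probes tested were fitted on fewer arrays. A probe entered the test if both arrays of either group had it well above background (28258 probes, 21064 genes), and the brightest probe stood for a gene. Groups were compared with limma 3.58.1 in R 4.3.3, with Benjamini-Hochberg adjustment over all probes and a limit of 0.05. With 2 arrays per group, their number limits the precision, and an exact permutation test could not go below p = 0.333. No array spot was saturated. Both fits were tested on simulated data with known changes, and the fit over probes recovered a smaller share of small changes than of large ones.

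The methods state that each culture came from different pups; nothing in the labels pairs cultures across groups, and deviations of same-numbered arrays correlated at -0.06. Probe pairs were the outermost probes of a gene that lie 60 to 2000000 bases apart and were well above background on all 4 arrays. The fit was repeated with a replicate block, with a trended and robust limma prior, with the methods' t-test, with normexp background correction with an offset of 50, quantile, median, detected-probe and spike-in scaling, other filters, outlier spots kept, the series table, gene means over probes, and each array left out. All 38 members were to be accounted for, with those changed over 2-fold or with probes called in opposite directions described on every array, and at most the 3 largest changes each way named in the related lists. The *Tet2* and *Alkbh5* upstream probes, *Kdm3a* and *Kdm5a* were given on every array after their values were seen. Members and lists were chosen with earlier results of these data known. The value of 1 gene of the related lists is not reported here.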

Additional observations from a re-analysis of the deposited data

How the results depend on the processing

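Directions of members rest most on the scaling. Under spike-in scaling, 3 members were called higher and 33 lower (1 and 22 of them over 2-fold), and the median log2 fold change of members was -1.12. The values that turned negative there were -0.65 for *Kdm3a*, -0.13 for *Kdm3b*, -1.25 for *Jmjd1c*, -0.71 for *Kdm4c*, -1.24 for *Phf2*, -0.78 for *Kdm5b*, -1.09 for *Kdm5c*, -1.15 for *Tet2*, -0.94 for *Tet3*, -1.09 for *Alkbh3*, -0.63 for *Alkbh5*, -1.03 for *Alkbh6*, -0.96 for *Alkbh8*, -1.18 for *Fto*, -0.44 for *P4ha3*, -0.88 for *P4htm*, -1.21 for *Plod1*, -0.78 for *Plod2*, -0.42 for *Plod3* and -0.90 for *Asph*. The 75th percentile over detected probes gave a member median of 0.0184 and turned uncalled members to -0.11 (*Jmjd1c*), -0.10 (*Phf2*), -0.0095 (*Tet2*), -0.0368 (*Fto*) and -0.0690 (*Plod1*). *Jmjd1c* came to -0.0907 with normexp and -0.0696 with quantile normalization, and *Alkbh3* to -0.0013 with the latter. The mean over a gene's probes gave a median of 0.33, 0.95 for *Kdm4a*, 0.44 for *Phf8* and 0.16 for *Kdm2b*, ended the call of *Kdm3b* (0.04) and called *Tet2* higher (1.25). Leaving out 1 array gave 8 to 16 members higher, 7 to 12 lower, a median of 0.10 to 0.19 and 10731 to 19161 probes called beside 18355 with all arrays, with 8 members higher without either untreated array. The counts of lower members without OGD array 1 or 2 include *Kdm5a*, which then had 1 array in each group and no measured spread. Members not called with all arrays that changed sign ranged from -0.0772 to 0.152 (*Jmjd1c*), from -0.0806 to 0.0266 (*Phf8*), from -0.0517 to 0.153 (*Phf2*) and from -0.18 to 0.46 (*Tet2*, called at 0.46). The comparison of probe pairs called 7 to 13 members under these omissions, 7 without either untreated array. With the replicate number as a block (replicate block), 14 members were called higher and 10 lower, and 10 pairs were called. The cause of these shifts was not tested. *Alkbh1*, *Jmjd6*, *P4ha2*, *Tet1*, *Kdm2a*, *Alkbh2*, *Alkbh4* and *Alkbh7* kept their direction and call under all 17 alternatives.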
